A study of Homo sapiens with 6 samples.

Results

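Matrix-attached regions that lay inside short protein-coding genes were examined in H1 human pluripotent stem cells, an established embryonic stem cell line. A region was a member when it lay on an autosome, when its centre fell in the body of a protein-coding gene, when no gene that held the centre reached 50 kb, and when the centre was more than 1 kb from any boundary of a protein-coding gene. The 3 region lists held 9982 members among 115751 regions, with 2859 of 40106 in hPSC, 3748 of 39368 in shLUC and 3375 of 36277 in shHNRNPU. The rule used gene positions only, so neither the density of members nor their sharing between lists was set by it. The 3 groups, each with 2 samples and 1 list, were H1 cells without treatment (hPSC), H1 cells with an shRNA against LUC (shLUC), the usual abbreviation of luciferase, and H1 cells with an shRNA against HNRNPU (shHNRNPU). Whether a list draws on both samples of its group is not given, and the hPSC region names alone carry an unexplained tag, rp1, so the hPSC list may come from a single sample. The hairpin itself and any difference in preparation, sample number or calling between the hPSC and the hairpin samples cannot be told apart. The lists hold no expression values, so the knockdown and the cell type were not checked here. Because each group had 1 list, no value below has an error between cultures and no test was possible. The intervals in parentheses are 95% exact intervals that cover counting error only.

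The nuclear matrix is the scaffold of protein and RNA that stays in a nucleus after soluble material and most chromatin have been removed. DNA that remains bound to it is thought to anchor chromatin loops, and such attachment has been described near gene starts, within introns and at intergenic sites. HNRNPU (scaffold attachment factor A) binds RNA and matrix DNA. In MAR-seq the nuclei are digested with restriction enzymes and the DNA that stays behind is sequenced. In a short gene the whole body lies close to its promoter and to its end, whereas in a long gene most of the body is distant intron.

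Members were denser at transcription starts inside short genes than in the rest of these genes, and hPSC and the hairpin lists shared them more often there. The RefSeq (GRCh38.p14) start windows used here run from 250 bases before to 50 bases after an annotated start. Of these windows, 2471, from 2002 genes, had their centre in the same short-gene territory as the members. They are alternative starts of protein-coding genes (1683 windows) and starts of lncRNA genes (788 windows). Of these, 4 windows lay wholly inside a region in all 3 lists, and their upstream 250 bases are shown. They belong to DCUN1D1, a cofactor of cullin neddylation (chr3:182980539-182980788, minus strand), FAM217A (chr6:4079138-4079387, minus strand), CHRNB4, a nicotinic acetylcholine receptor subunit (chr15:78641211-78641460, minus strand), and ANKRD24 (chr19:4198143-4198392, plus strand). The windows were chosen after the lists had been seen. Capitals mark the recognition sites of 4 of the 6 enzymes in the digestion mix, namely MspI (CCGG), HaeIII (GGCC), AluI (AGCT) and RsaI (GTAC), which are the same on both strands and can overlap each other. The 6-base sites of BamHI and PvuII were not searched, although that of PvuII holds the AluI site.
DCUN1D1: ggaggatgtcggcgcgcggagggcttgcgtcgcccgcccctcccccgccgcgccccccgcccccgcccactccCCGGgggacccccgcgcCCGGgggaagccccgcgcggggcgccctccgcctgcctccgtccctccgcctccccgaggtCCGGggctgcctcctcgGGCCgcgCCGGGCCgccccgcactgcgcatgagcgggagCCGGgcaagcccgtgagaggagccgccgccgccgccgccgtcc
FAM217A: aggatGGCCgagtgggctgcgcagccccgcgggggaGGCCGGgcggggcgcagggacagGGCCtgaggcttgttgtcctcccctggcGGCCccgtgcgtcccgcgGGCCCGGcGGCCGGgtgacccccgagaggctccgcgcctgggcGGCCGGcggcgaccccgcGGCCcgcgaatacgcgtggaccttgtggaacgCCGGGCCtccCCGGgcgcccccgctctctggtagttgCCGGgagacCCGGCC
CHRNB4: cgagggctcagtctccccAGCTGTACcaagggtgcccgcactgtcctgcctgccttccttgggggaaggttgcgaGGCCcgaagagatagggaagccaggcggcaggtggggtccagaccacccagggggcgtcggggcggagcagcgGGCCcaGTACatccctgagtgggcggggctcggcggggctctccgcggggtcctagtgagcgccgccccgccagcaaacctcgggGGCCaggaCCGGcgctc
ANKRD24: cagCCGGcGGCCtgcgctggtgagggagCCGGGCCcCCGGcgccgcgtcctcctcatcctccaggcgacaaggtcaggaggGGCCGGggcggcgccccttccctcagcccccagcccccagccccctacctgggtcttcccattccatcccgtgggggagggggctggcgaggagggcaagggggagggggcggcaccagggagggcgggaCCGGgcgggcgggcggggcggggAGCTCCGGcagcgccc

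These 4 windows had a GC content of 81.7% (DCUN1D1), 79.7% (FAM217A), 72.7% (CHRNB4) and 80% (ANKRD24), and held 44, 41, 27 and 29 CpG dinucleotides in 300 bases. They are not typical of the 40 windows with a region in all 3 lists, which had a median GC content of 67.8%. DCUN1D1, FAM217A and ANKRD24 lay above the upper quartile of those windows, 73.4%. FAM217A had 22 enzyme sites in its window, ANKRD24 had 13, DCUN1D1 had 9 and CHRNB4 had 8, against a median of 6 over all 33725 autosomal windows used. A site of MspI was found in 63.2% of all windows, of HaeIII in 79.0%, of AluI in 74.0% and of RsaI in 29.7%.

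For comparison, 3 windows of median GC content were taken from the other kinds of window. That of LIMS2, a focal adhesion adaptor (chr2:127675531-127675780, minus strand), lay wholly inside an hPSC region with none in the hairpin lists. That of the lncRNA ARRDC3-AS1, inside ARRDC3 (chr5:91380097-91380346, plus strand), lay wholly inside a region in both hairpin lists and had none in hPSC. That of ALDH4A1, a mitochondrial dehydrogenase of proline breakdown (chr1:18890892-18891141, minus strand), had no region in any list. Capitals mark the same enzyme sites.
LIMS2: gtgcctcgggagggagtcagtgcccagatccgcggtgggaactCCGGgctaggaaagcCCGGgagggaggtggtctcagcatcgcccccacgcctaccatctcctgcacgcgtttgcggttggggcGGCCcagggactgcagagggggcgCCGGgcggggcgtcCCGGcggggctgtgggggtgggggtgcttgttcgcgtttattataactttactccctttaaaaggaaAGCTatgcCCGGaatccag
ARRDC3-AS1: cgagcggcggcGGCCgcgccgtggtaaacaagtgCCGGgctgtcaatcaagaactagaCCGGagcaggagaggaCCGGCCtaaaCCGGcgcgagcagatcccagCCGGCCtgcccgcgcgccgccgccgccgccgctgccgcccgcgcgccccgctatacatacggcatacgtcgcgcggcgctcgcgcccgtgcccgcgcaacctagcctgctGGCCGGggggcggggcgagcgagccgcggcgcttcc
ALDH4A1: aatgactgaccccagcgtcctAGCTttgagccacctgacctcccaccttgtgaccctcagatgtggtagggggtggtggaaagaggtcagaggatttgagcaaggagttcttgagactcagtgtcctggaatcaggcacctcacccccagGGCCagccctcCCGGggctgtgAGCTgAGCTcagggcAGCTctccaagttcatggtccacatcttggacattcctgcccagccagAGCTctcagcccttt

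The GC content was 67% for LIMS2, 74.7% for ARRDC3-AS1 and 57% for ALDH4A1, with 26, 51 and 2 CpG dinucleotides and 8, 13 and 8 enzyme sites. Each stands for many windows: 42 lay wholly inside an hPSC region alone, 20 wholly inside a region of both hairpin lists alone, and 2001 had no region in any list.

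Over all 2471 internal start windows, 321 (13.0%, interval 11.7 to 14.4%) overlapped an hPSC region, 187 (7.57%, 6.56 to 8.68%) a shLUC region and 189 (7.65%, 6.63 to 8.77%) a shHNRNPU region. These shares were below those over all 33725 autosomal windows used, which were 23.6%, 12.5% and 13.2%, and below the 34.8%, 17.7% and 18.99% of windows within 1 kb of a gene boundary. Start windows inside genes of 50 kb or more had 12.8%, 9.11% and 9.28%, so the hPSC share was close in short and long genes. Starts of protein-coding genes were covered in 15.2% against 8.25% for lncRNA genes in hPSC and in 8.67% against 5.46% in shHNRNPU. In shLUC they had 8.38% (7.10 to 9.81%) against 5.84% (4.31 to 7.71%), with intervals that overlapped. In all, 40 windows had a region in all 3 lists, 237 in hPSC alone and 103 in both hairpin lists but not in hPSC. The median GC content was 57% in windows with no region, 65% in windows with a region in 1 list, 71.3% in 2 lists and 67.8% in 3 lists, and the median number of CpG dinucleotides was 7, 22, 30 and 29. The lists differed in how coverage followed GC content. Among the 512 windows of 45 to 55% GC, 7.23% had an hPSC region (5.14 to 9.82%), 1.17% a shLUC region (0.431 to 2.53%) and 1.56% a shHNRNPU region (0.677 to 3.06%). Among the 163 windows above 75% GC the order was turned, with 18.4% in hPSC (12.8 to 25.2%), 30.7% in shLUC (23.7 to 38.4%) and 37.4% in shHNRNPU (29.98 to 45.3%). The shLUC and shHNRNPU intervals overlapped in each of the 5 GC classes. Of the 400 windows at or below 45% GC, 0 had a shLUC region, for which the exact interval reached 0.918%. The total number of enzyme sites moved with coverage too, but not the sites of each enzyme. Its median was 5 per window where no list had a region, 8 in windows with an hPSC region and 9 with a shLUC or a shHNRNPU region. The MspI site CCGG was present in 88.2% of windows with an hPSC region, 94.1% with a shLUC region and 95.8% with a shHNRNPU region, against 54.8% of windows with none. The HaeIII site GGCC was present in 93.1%, 94.1% and 96.3%, against 80.4%. The AluI site AGCT was less frequent with coverage, in 73.2%, 66.3% and 64.6%, against 77.2%. The RsaI site GTAC was present in 28.7%, 20.9% and 20.6%, against 28.3%. The part of the digestion in these differences was not tested.

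**Figure D1:**
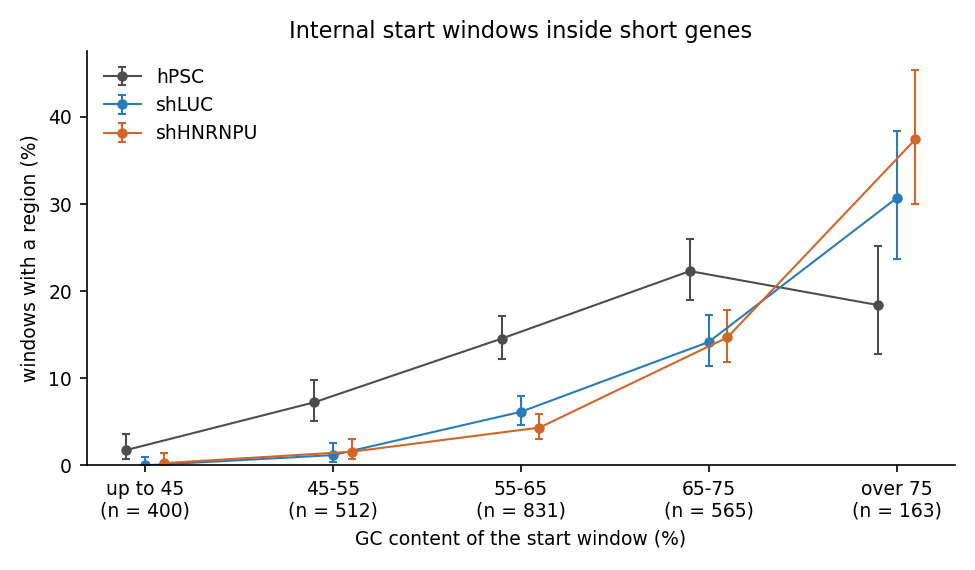
Share of RefSeq start windows inside short genes that overlap a region (y axis, percent) in 5 classes of GC content (x axis, percent, with the number of windows), for the 3 lists. Points are shares and bars are 95% exact binomial intervals. The hPSC share is above both hairpin shares from 45 to 75% GC and below them above 75% GC.

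Start windows took up 0.701 Mb of the 182.9 Mb of short-gene territory. The windows did not cover every gene, and chromosome 8 had none. They gave a strand for 8977 of the 11463 genes with member territory. Members on chromosome 8 and at other starts without a window count as lying elsewhere. Inside the start windows the density of member centres was 204.1 per Mb in hPSC (172.0 to 240.5), 124.2 in shLUC (99.5 to 153.2) and 117.1 in shHNRNPU (93.1 to 145.3). In the rest of the territory it was 14.9, 20.1 and 18.1 per Mb. The ratio was 13.7 in hPSC, 6.18 in shLUC and 6.48 in shHNRNPU. Thus hPSC members were denser than hairpin members at internal starts and sparser elsewhere. Even so, members that touched any start window were few, namely 277 in hPSC (9.69%), 156 in shLUC (4.16%) and 160 in shHNRNPU (4.74%). Most members in each list lay away from these windows.

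The density of members was then compared with the rest of the autosomes, to ask whether matrix attachment was more frequent inside short genes than elsewhere. Short-gene territory, taken by the same rule, was 182.9 Mb or 6.37% of the autosomes. It held 15.6 regions per Mb in hPSC (15.1 to 16.2), 20.5 in shLUC (19.8 to 21.2) and 18.4 in shHNRNPU (17.8 to 19.1). Relative to all autosomal regions this was 1.14 times the mean density in hPSC, 1.52 times in shLUC and 1.48 times in shHNRNPU. Inside genes of 50 kb or more, also more than 1 kb from any boundary, it was 13.2 in hPSC, 14.4 in shLUC and 13.0 in shHNRNPU. Short genes were thus denser than long ones by a factor of 1.19, 1.42 and 1.41. Positions in long genes can lie farther from a boundary, and these factors were not matched for that distance. Outside protein-coding genes it was 9.86, 9.73 and 8.82 per Mb. Regions within 1 kb of a gene boundary were by far the densest, with 108.8 per Mb in hPSC, 71.9 in shLUC and 73.8 in shHNRNPU. The lists therefore differed in opposite directions at and within short genes, with hPSC highest at boundaries and lowest in the interior. Density in short genes exceeded that in long genes on 21 of 22 autosomes in hPSC, on 22 in shLUC and on 21 in shHNRNPU. Over the autosomes it ranged from 13.1 to 18.8 per Mb in hPSC, from 16.0 to 24.6 in shLUC and from 14.4 to 22.5 in shHNRNPU.

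**Figure D2:**
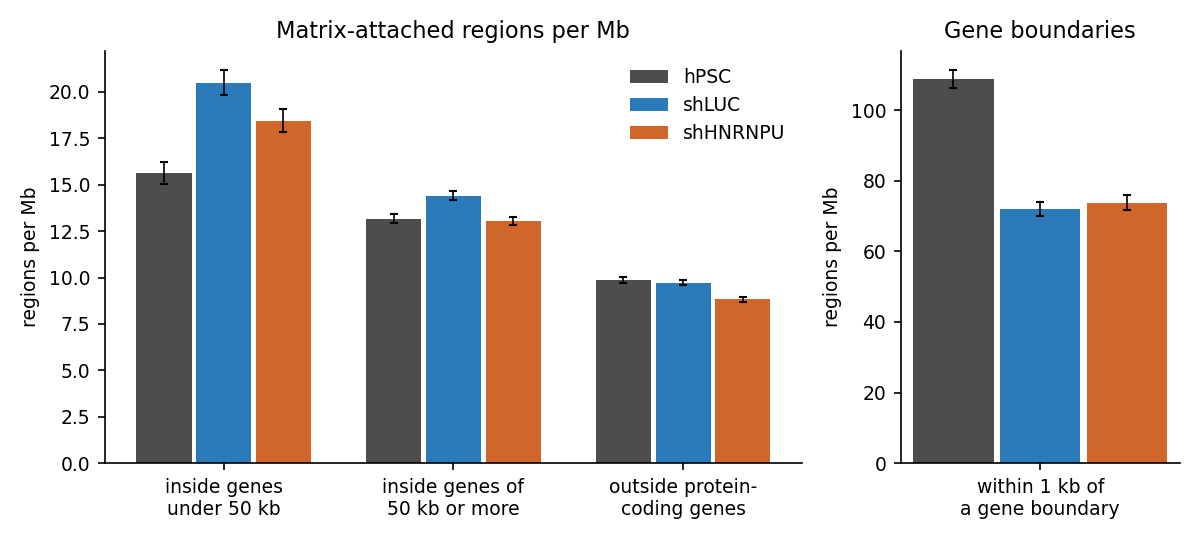
Regions per Mb of territory (y axis) in 4 classes of autosomal sequence, with gene boundaries on a separate axis, for the 3 lists. Bars are densities and error bars are 95% exact Poisson intervals, which cover counting error only. Inside genes under 50 kb shLUC is highest at 20.5 per Mb and hPSC lowest at 15.6, whereas at boundaries hPSC is highest at 108.8.

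Within short genes the density was highest in the shortest genes. In genes under 5 kb it was 32.7 per Mb in hPSC (25.6 to 41.2), 45.5 in shLUC (37.0 to 55.3) and 40.5 in shHNRNPU (32.5 to 49.8). In genes this short every member by definition lies close to a boundary, and gene length and distance from a boundary were not separated here. In genes of 40 to 50 kb it was 14.0 (12.9 to 15.1), 17.9 (16.6 to 19.1) and 15.7 (14.5 to 16.9). Past the length limit it changed little up to 200 kb in hPSC (14.6 per Mb at 50 to 100 kb and 14.7 at 100 to 200 kb), and was 9.96, 10.9 and 9.95 per Mb in genes over 500 kb. At the limit itself the intervals overlapped: genes of 45 to 50 kb had 14.1, 17.7 and 15.7 regions per Mb and genes of 50 to 55 kb had 14.5, 16.3 and 14.7. The excess of shLUC over hPSC was widest in the shorter genes, with 28.1 against 19.6 per Mb at 5 to 10 kb and 23.6 against 16.2 at 10 to 20 kb. In genes of 200 to 500 kb the corresponding values were 14.1 and 13.7.

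**Figure D3:**
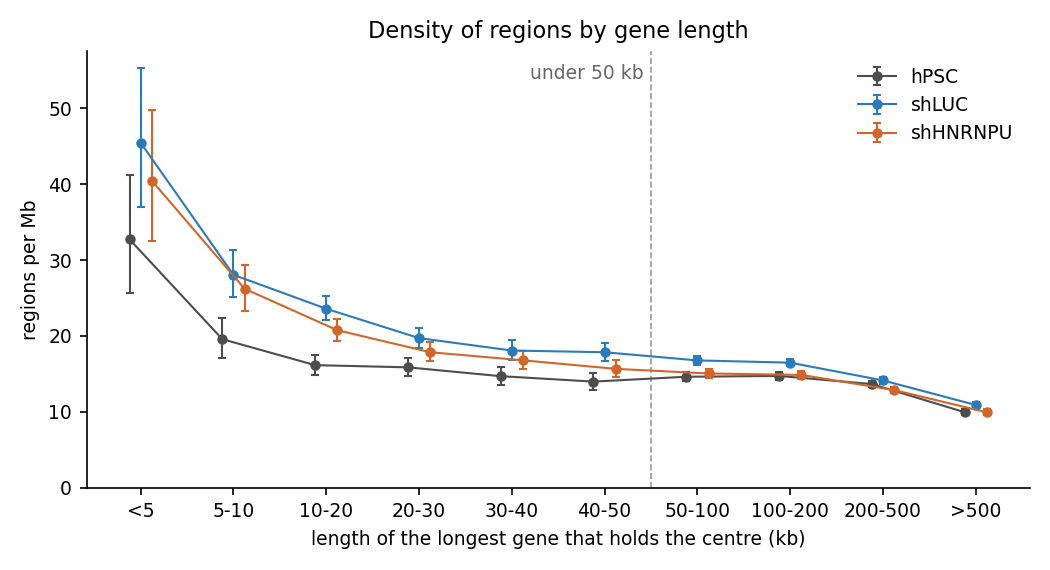
Regions per Mb (y axis) by the length of the longest protein-coding gene that holds the region's centre (x axis, kb), more than 1 kb from any boundary, for the 3 lists. Points are densities and bars are 95% exact Poisson intervals. The dashed line is the limit of 50 kb. Density falls from 32.7 to 45.5 per Mb in genes under 5 kb to between 9.95 and 10.9 in genes over 500 kb.

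The distance to the nearest gene boundary was examined next, because the density at boundaries was so high. Inside short genes the density fell from 246.7 per Mb in hPSC, 150.0 in shLUC and 159.7 in shHNRNPU within 250 bp of a boundary to 37.2, 39.3 and 36.3 at 750 to 1000 bp. In the first 250 bp past the membership limit of 1 kb it was 28.2, 34.0 and 31.4, so members next to the limit still lay on the slope. In hPSC the slope ended in a minimum of 12.6 per Mb (11.4 to 13.9) at 3 to 5 kb, below the 15.7 (14.7 to 16.7) at 5 to 10 kb. No such minimum was seen in shLUC, which had 21.5 and 19.4 at these distances. The median distance of a member from a boundary was 6097 bp in hPSC, 5465.5 bp in shLUC and 5603 bp in shHNRNPU.

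Where the strand of the gene was known from RefSeq starts (8977 of the 11463 genes with member territory), both ends could be told apart. In shLUC the density rose towards the 3′ end of the gene, from 16.7 per Mb (15.5 to 18.0) more than 20 kb away to 26.0 (23.5 to 28.7) at 3 to 5 kb and 33.1 (29.3 to 37.2) at 1 to 2 kb, with 22.2 (19.1 to 25.7) between these at 2 to 3 kb. The shHNRNPU values at the same distances were 14.8, 23.4 and 28.6. In hPSC they were 15.2, 15.8 and 21.7, with 16.4 at 2 to 3 kb. Counted by which end was nearer, 46.1% of shLUC members (44.3 to 47.9%) and 45.3% of shHNRNPU members (43.4 to 47.2%) lay nearer to the start, where 50.3% of the territory lies. In hPSC the share was 49.4% (47.4 to 51.5%). The hPSC minimum lay on the side of the start, with 11.4 per Mb (9.77 to 13.2) at 3 to 5 kb downstream of it, against 15.8 at 3 to 5 kb from the 3′ end. The hairpin lists were also lowest at 3 to 5 kb from the start, with 15.9 (14.0 to 18.1) in shHNRNPU and 19.1 (16.9 to 21.4) in shLUC, but these intervals overlapped those at 2 to 3 and at 5 to 10 kb. The hPSC interval overlapped that at 2 to 3 kb (12.2 to 17.5) but not that at 5 to 10 kb (14.6 to 17.4).

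**Figure D4:**
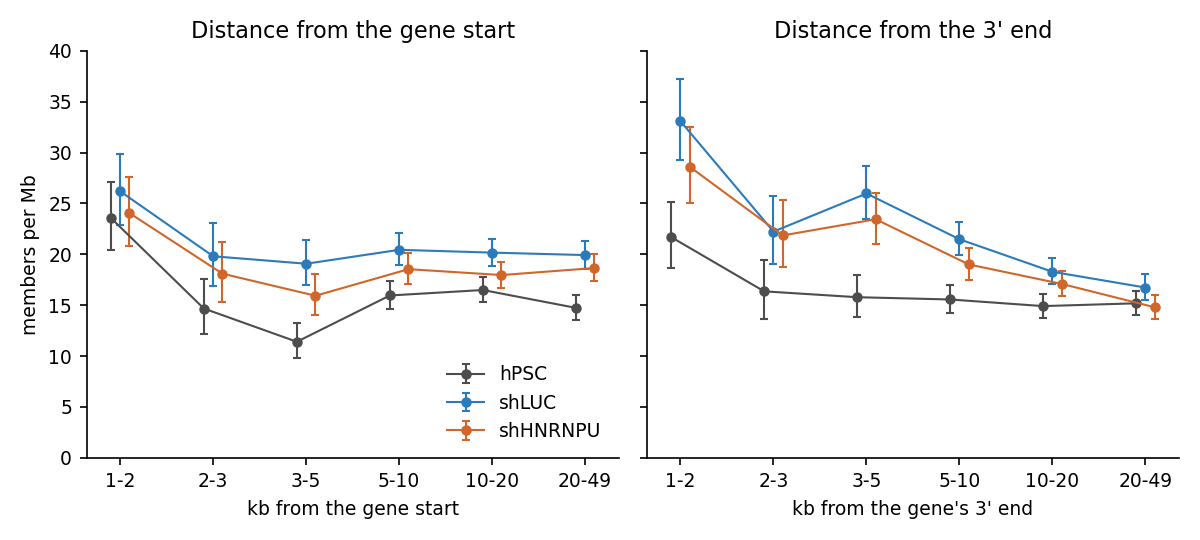
Members per Mb (y axis) by distance from the gene start (left, kb) and from the 3′ end (right, kb), in short genes of known strand, for the 3 lists. Points are densities and bars are 95% exact Poisson intervals. Both hairpin lists rise towards the 3′ end, to 33.1 in shLUC and 28.6 in shHNRNPU at 1 to 2 kb, and hPSC dips to 11.4 at 3 to 5 kb from the start.

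The hairpin lists were compared to ask whether knockdown of HNRNPU changed attachment inside short genes. The number of members fell from 3748 in shLUC to 3375 in shHNRNPU, a change of -9.95%. Regions in long genes changed by -9.47% and regions outside genes by -9.32%, whereas regions at gene boundaries changed by 2.56%. As a share of the autosomal list, members made up 9.64% in shLUC and 9.43% in shHNRNPU, a log2 ratio of -0.03 (-0.10 to 0.03). The decrease in members was thus of the size seen in long genes and outside genes, and their share did not differ beyond counting error. With a gene length limit of 25 kb the log2 ratio was -0.05, and its interval again included 0. Members formed 7.23% of the hPSC list, a log2 ratio to shLUC of -0.42 (-0.48 to -0.35). In long genes the same ratio was -0.15, and at gene boundaries it was 0.57. The share of members was higher in shLUC than in hPSC on 21 of 22 autosomes, and higher in shLUC than in shHNRNPU on 16.

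The positions of members were then followed between lists. Of the shLUC members, 2588 (69.1%, 67.5 to 70.5%) overlapped a shHNRNPU region by at least 1 bp, and the same was true of 70.9% of all autosomal shLUC regions. All 2588 had the same start and end in both lists, to the base. Seen from shHNRNPU, 76.7% of members (75.2 to 78.1%) overlapped a shLUC region, against 77% of all its autosomal regions. Members thus differed little from other regions in this comparison. The difference from the remaining autosomal regions was -2.03 percentage points (-3.58 to -0.47) for shLUC and -0.32 points (-1.82 to 1.18) for shHNRNPU. From shLUC regions in long genes the shLUC members differed by -0.56 points (-2.23 to 1.10). In all, 1160 shLUC members had no shHNRNPU region, and 787 shHNRNPU members had no shLUC region.

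Agreement of the hairpin lists with hPSC was far lower. Of the shLUC members, 355 (9.47%, 8.55 to 10.5%) overlapped an hPSC region, against 14.2% of all autosomal shLUC regions. Of the shHNRNPU members, 381 (11.3%, 10.2 to 12.4%) did, against 17.3%. In the other direction, 364 hPSC members (12.7%, 11.5 to 14.0%) overlapped a shLUC region and 389 (13.6%, 12.4 to 14.9%) a shHNRNPU region, against 14% and 15.6% of all autosomal hPSC regions. The share of shLUC members found in hPSC differed from that of other autosomal regions by -5.25 points (-6.26 to -4.24), and it was lower on 20 of 22 autosomes. For shHNRNPU the difference was -6.61 points (-7.75 to -5.46), lower on 22 of 22. This difference came with the high sharing at gene boundaries, where 45.2% of shLUC regions had an hPSC region, since regions in long genes had 8.99% and those outside genes 10.3%. Against long genes the difference was 0.48 points (-0.57 to 1.53). Seen from hPSC, members were shared with shLUC more often than regions in long genes, by 2.86 points (1.53 to 4.18). With genes under 25 kb only, the difference from other regions was -2.72 points, a smaller gap than with the limit of 50 kb. Identical coordinates were rare between hPSC and the hairpin lists. They were found in 95 shLUC members (2.53%) and 141 shHNRNPU members (4.18%), against 4.31% and 6.36% of all autosomal regions of these lists. In all 3 lists 43 members had the same coordinates, and that share over all regions was not computed. Over all hPSC members the median distance to the nearest shLUC region was 11.0 kb. A shLUC region lay within 1 kb of 15.98% of them, against the 12.7% that overlapped one.

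Sharing with hPSC was higher at internal starts. Of the 156 shLUC members that touched a start window, 52 (33.3%, 26.0 to 41.3%) overlapped an hPSC region, whereas of the 3592 others 303 (8.44%, 7.55 to 9.39%) did. For shHNRNPU the values were 32.5% (25.3 to 40.3%) of 160 and 10.2% (9.21 to 11.3%) of 3215. Sharing between the hairpin lists varied less, with 78.2% (70.9 to 84.4%) of shLUC members at start windows and 68.7% (67.1 to 70.2%) elsewhere.

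Members of the hairpin lists were also divided by whether both lists held them and looked up in hPSC. An hPSC region overlapped 9.12% (8.04 to 10.3%) of the 2588 members in both hairpin lists, 10.3% (8.57 to 12.1%) of the 1160 members in shLUC but not shHNRNPU, and 18.4% (15.8 to 21.3%) of the 787 members in shHNRNPU but not shLUC. The excess of the last class lay in identical coordinates, which it shared with hPSC in 98 members (12.5%), against 43 (1.66%) of the members in both hairpin lists. Overlaps at other coordinates were 5.97% and 7.46%. This division was made for members only, so whether it is particular to them was not tested. How regions were called and brought to a fixed width of 400 bp is not given in the sources used here, and its part in the identical coordinates was not tested.

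At the level of genes, 13111 of the 19122 autosomal protein-coding genes were under 50 kb, and 11463 of them had territory in which a member could lie. A member was found in 2471 of these genes in hPSC (21.6%, 20.8 to 22.3%), in 3098 in shLUC (27.0%, 26.2 to 27.8%) and in 2869 in shHNRNPU (25.0%, 24.2 to 25.8%). Most held a single member, namely 84.4% of the holding genes in hPSC, 80.9% in shLUC and 83.3% in shHNRNPU, and 51, 96 and 80 genes held 3 or more. Longer genes held members more often, as they offer more room: in shLUC 6.35% of genes under 5 kb and 52.0% of genes of 40 to 50 kb did. With a limit of 25 kb the share in hPSC was 14.3% of genes. In all 3 lists 870 genes held a member, 1504 did so in both hairpin lists but not in hPSC, 1195 in hPSC alone, and 6675 genes (58.2%) in none.

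Genes were then compared between lists by whether they held a member in both and by whether the positions overlapped. A gene with overlapping members mostly counts in both measures, so the first share is largely bound to be the higher. Of the 2471 genes with an hPSC member, 1089 (44.1%) also held a shLUC member, against 22.3% of the genes without an hPSC member. In 361 of the 2471 (14.6%) an hPSC member overlapped a shLUC region, which need not be a member itself. Between the hairpin lists both measures were close, with 76.6% of the shLUC genes holding a shHNRNPU member and 73.7% holding one at an overlapping position. Gene length moves with both, since the median length was 26076 bp in genes with an hPSC member and 15208 bp in all genes with territory, and its part in the sharing of genes was not tested. A member in the body did not go with a region at the gene's own boundary: 38.9% (36.9 to 40.8%) of genes with an hPSC member had one within 1 kb of either boundary, against 42.9% (41.9 to 43.9%) of genes without. The values were 24.5% and 25.4% in shLUC, and 24.8% and 26.3% in shHNRNPU.

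Counts per gene changed in both directions between the hairpin lists. Of the 3593 short genes with a member in either list, 978 (27.2%, 25.8 to 28.7%) had fewer in shHNRNPU than in shLUC, 638 (17.8%, 16.5 to 19.05%) had more and 1977 had equal numbers. Over protein-coding genes of any length with a region in the interior in either list, the shares were 33.4% with fewer and 20.7% with more, and long genes can hold more regions. Between hPSC and shLUC, 49.6% of 4480 short genes had fewer in hPSC and 34.2% had more, against 47.3% and 35% over genes of any length.

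The genes with most members differed between hPSC and the hairpin lists. PPFIA3, which codes for a liprin scaffold of the presynaptic active zone (chr19:49119544-49151026), held 5 members in hPSC, the highest number for any short gene in that list, and 0 in both hairpin lists. ELAVL1, which codes for the mRNA-stabilising protein HuR (chr19:7958573-8005641), held 4 hPSC members and none in the hairpin lists. SYTL1, a synaptotagmin-like effector of vesicle transport (chr1:27342022-27353932), held 3 members in hPSC within 11.9 kb and 0 in the others. CHID1 and SCAND3 each held 4 members in hPSC, 0 in shLUC and 1 in shHNRNPU, and the shHNRNPU member of CHID1 (chr11:877690-878089) had the same coordinates as an hPSC member. These genes filled the first places by number, but 51 genes held 3 or more members in hPSC, so the fifth place was decided by gene length among ties.

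In shLUC the highest number was again 5, in TPCN2, SLCO4A1 and SPTBN5. TPCN2, a cation channel of lysosomes (chr11:69048932-69090597), had its 5 shLUC members spread from 6.4 to 39.9 kb from the start. In shHNRNPU it had 1 member, at another position, and in hPSC 0. SLCO4A1, an organic anion transporter (chr20:62642503-62690740), went from 5 to 2 members, both of which had kept their coordinates. SPTBN5, a spectrin of the membrane skeleton (chr15:41848146-41894053), went from 5 to 3, and the 3 in shHNRNPU were at the coordinates of the 3 shLUC members nearest to its 3′ end. ZNF316, a zinc finger gene (chr7:6637318-6658279), went from 4 to 1, and TRAF7, a ubiquitin ligase (chr16:2155782-2178129), from 4 to 2. The decrease from shLUC to shHNRNPU was largest in TPCN2 and in SULT4A1, a sulfotransferase of the brain (chr22:43824509-43862513), which had 4 members in shLUC and 0 in shHNRNPU. Of the 2 hPSC members of SULT4A1, 1 had the coordinates of a shLUC member (chr22:43845326-43845725).

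Increases were smaller, at most 3 members in a gene. AP2A1, the alpha subunit of the clathrin adaptor of endocytosis (chr19:49767001-49807114), ADGRG5, an adhesion receptor (chr16:57529073-57577189), and ANAPC5, a subunit of the anaphase-promoting complex (chr12:121308245-121354209), each held 0 members in shLUC and 3 in shHNRNPU. None of these 9 members overlapped an hPSC region, although ANAPC5 held 1 hPSC member elsewhere. A change of 3 or 4 members in a gene has no replicate to be compared with here.

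Other genes held most of their members at the same places in both hairpin lists. PREPL, a serine hydrolase (chr2:44317607-44361862), held 4 members in shLUC and 4 in shHNRNPU, all at the same coordinates, and 0 in hPSC. PAPLN, an extracellular matrix protein (chr14:73235805-73274623), held 4 in each, of which 3 had the same coordinates, and 1 of these (chr14:73245789-73246188) overlapped its single hPSC member. GGCX, the vitamin K-dependent gamma-carboxylase (chr2:85544720-85561493), held 3 in each, all identical, and its hPSC member at 15.2 kb from the start overlapped 1 of them. CSPG5, a neural chondroitin sulfate proteoglycan (chr3:47562238-47580240), held 3 identical members in the hairpin lists and no hPSC member, although 1 of them (chr3:47578780-47579179) overlapped an hPSC region whose centre was nearer to the boundary. FLOT1, which codes for a lipid raft protein (chr6:30727709-30742687), had 2 in shLUC and 3 in shHNRNPU.

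**Figure D5:**
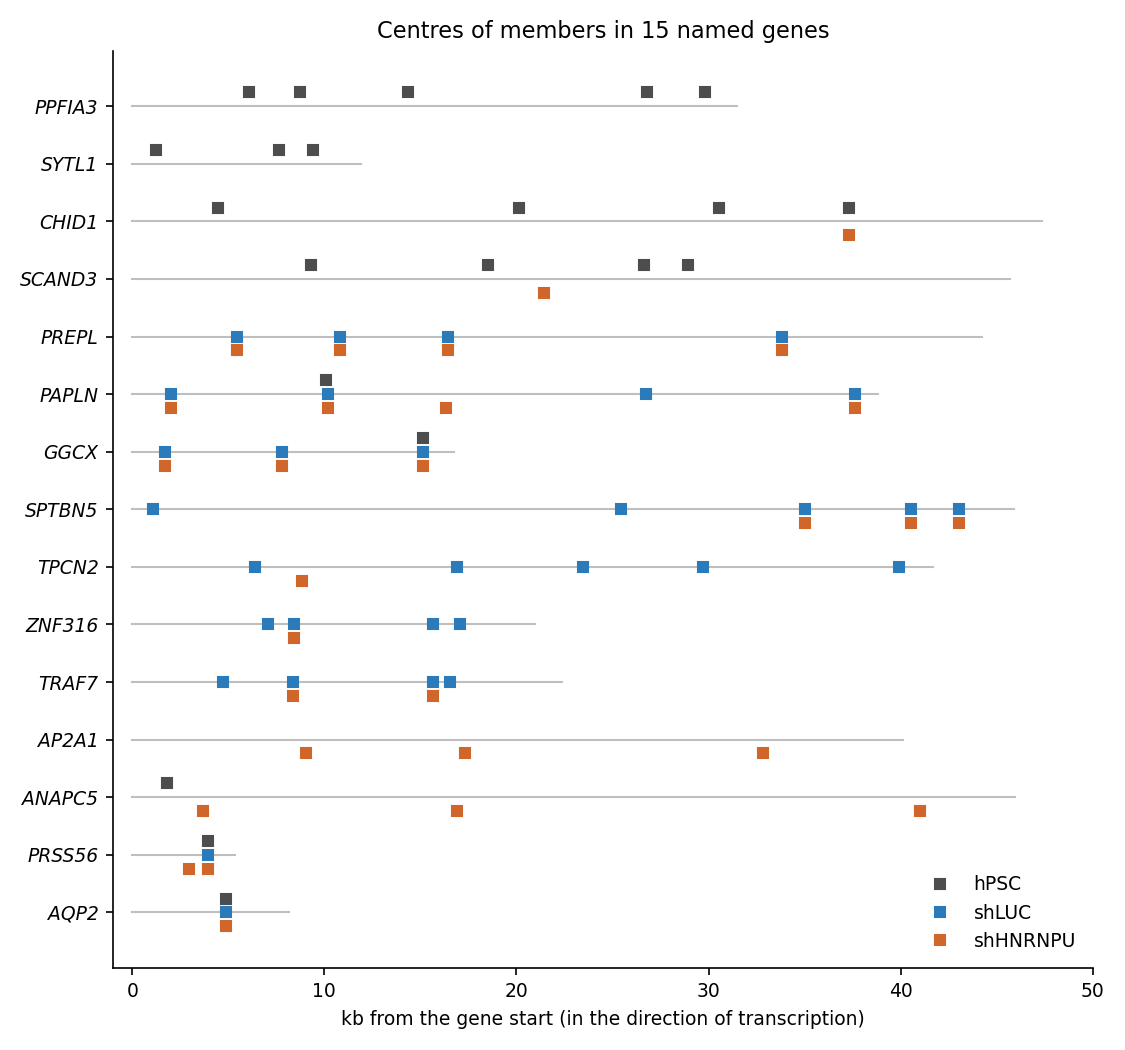
Centres of members (squares) along 15 short genes (grey lines, each drawn from its start to its end in the direction of transcription), in kb from the gene start (x axis), coloured by list. PPFIA3 and SYTL1 have members in hPSC alone, the 4 members of PREPL coincide in both hairpin lists, TPCN2 has 5 in shLUC and 1 in shHNRNPU, and AQP2 has 1 at the same place in all 3 lists.

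The 43 members at the same coordinates in all 3 lists lay in 44 genes, with 1 such member in each gene. The shortest of these genes were PRSS56, a serine protease (chr2:232520388-232525716), PRR36 (chr19:7868719-7874390), POLR2H, a subunit of RNA polymerase (chr3:184361710-184368591), GHRL, the precursor of the hormone ghrelin (chr3:10285666-10292947), and AQP2, the water channel of the renal collecting duct (chr12:49950737-49958878). The shared regions were chr2:232524146-232524545, chr19:7869596-7869995, chr3:184362911-184363310, chr3:10289999-10290398 and chr12:49955397-49955796, all between 1.08 and 3.28 kb from the nearest gene boundary. PRSS56 held a further member in shHNRNPU (chr2:232523129-232523528).

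Gene families were described by how many of their genes held a member, beside the 21.6%, 27.0% and 25.0% of all genes with territory, in the order hPSC, shLUC and shHNRNPU. The HOX clusters, which hold the homeobox genes that pattern the body axis, had the highest density of members per Mb of territory among the 10 lists, at 58.1, 49.2 and 49.2, against 15.7, 20.5 and 18.5 per Mb over all genes. These densities count a member once for each gene that holds it. They came from small numbers, with 11, 9 and 9 distinct members in a territory of 0.224 Mb, some of which several overlapping HOX genes share. The median length of HOX genes was 3786 bp. All genes under 5 kb, with each region counted once, had 32.7 (25.6 to 41.2), 45.5 (37.0 to 55.3) and 40.5 (32.5 to 49.8) per Mb. Much of the HOX territory lay in longer genes, with 31852 bp in HOXA3, 35368 bp in HOXB3 and 33139 bp in HOXC4, and length was not matched. Members lay in 10, 9 and 9 of 39 HOX genes. HOXA3 held 2 members in each list, HOXC4 held 3, 1 and 1, and HOXD13 and HOXD3 each held 1 in every list at overlapping positions. The HOXD13 region was chr2:176092629-176093028 in hPSC and chr2:176092788-176093187 in both hairpin lists.

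Ribosomal protein genes, which are short, held members in 6 (8.57%), 2 (2.86%) and 4 (5.71%) of 70 genes by symbol. Genes under 5 kb held them in 4.52%, 6.35% and 5.62%, and genes of 5 to 10 kb in 10.2%, 14.2% and 13.3%, so the hPSC share lay within the range of genes of this length. These symbols took in RPS19BP1 and the readthrough gene RPL17-C18orf32. The genes in hPSC were RPL13, RPL28, RPL39L, RPL3L, RPS24 and RPS29, and RPS29 held 1 in every list. The median length of the 70 genes was 5013 bp, and their territory was 0.323 Mb, in which the density was 18.6, 6.19 and 12.4 per Mb. Over all genes it was 15.7, 20.5 and 18.5 per Mb, so the density was higher than that in hPSC and lower in the hairpin lists. Keratin genes held members in 5, 4 and 3 of 54 and complex I genes, with its assembly factors, in 6, 7 and 5 of 34. Genes with proteasome symbols, among them PSMC3IP, held them in 5, 8 and 9 of 33.

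Genes with zinc finger symbols (ZNF, ZKSCAN and ZSCAN), many of which repress transposable elements, held members in 81 (19.1%), 122 (28.8%) and 106 (25.1%) of 423 genes. Their density of 10.9, 17.0 and 14.2 per Mb was below that of all genes in each list. ZNF697 (chr1:119619377-119648266) had 1, 2 and 2 members, and the region chr1:119631489-119631888 was the same in all lists. Genes with SLC symbols, which name the solute carriers of membrane transport, held members in 74 (32.6%), 83 (36.6%) and 77 (33.9%) of 227 genes, with a density of 19.1, 23.1 and 20.8 per Mb and a median gene length of 22420 bp. These symbols took in SLC4A1AP (1, 1 and 1 members), SLC2A4RG (0, 1 and 0) and SLC7A6OS (0 in each list), which are not transporters. In SLC29A1, the equilibrative nucleoside transporter (chr6:44219615-44234142), the region chr6:44223745-44224144 was identical in all lists. SLC8A2, a sodium-calcium exchanger (chr19:47428017-47471893), held 3 identical members in both hairpin lists and 1 overlapping member in hPSC. Among splicing factors of the SR family, 1 of 11 genes held members, SRSF11 (chr1:70205696-70253052), with 1 in every list at overlapping positions.

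Of the 22 pluripotency genes with territory, 4, 6 and 4 held members. DNMT3B, a de novo DNA methyltransferase of pluripotent cells, held 3 in hPSC and 0 in both hairpin lists. TERT, the catalytic subunit of telomerase, held 0 in hPSC, 3 in shLUC and 2 in shHNRNPU. NODAL, a ligand of the TGF-beta family, held 1 in each list, and KLF5 and SALL4 each held 1 in hPSC, 1 in shLUC and 0 in shHNRNPU. In the same order, LIN28A held 0, 1 and 0, DPPA2 held 0, 1 and 1, and LEFTY2 held 0, 0 and 1. POU5F1, NANOG and SOX2 held none in any list, and their territory was 4344, 7743 and 510 bp. The list of nuclear matrix, lamina and hnRNP genes held members in 6 (33.3%), 9 (50%) and 7 (38.9%) of 18. The median length of these genes was 21050.5 bp, and all genes of 20 to 30 kb held members in 29.8%, 36.1% and 33.4%. HNRNPU itself, the target of the hairpin, held 0 in hPSC, 1 in shLUC and 1 in shHNRNPU. LBR, the lamin B receptor, held 3 in hPSC alone, and HNRNPD held 3, 1 and 0. SAFB, a scaffold attachment factor, held 0, 2 and 2, whereas SAFB2 held 1, 0 and 0. LMNB2 held 0, 1 and 1, and TOP2A held 0, 1 and 2. These counts are of single regions in 1 list per group.

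Annotated non-coding genes of any kind held the centre of 9.30% of hPSC members, 8.06% of shLUC members and 7.97% of shHNRNPU members. They covered 7.66% of the territory. A lncRNA gene held the centre of 8.11% of hPSC members, 7.04% of shLUC members and 6.93% of shHNRNPU members, and lncRNA genes covered 6.79% of the territory. Among 352 microRNA hairpins in short-gene territory, 15 (4.26%) overlapped a region in any list, against 78 of all 1461 autosomal hairpins (5.34%). Of the 15, 6 were covered in both hairpin lists but not in hPSC and 6 in hPSC alone. MIR658, inside ANKRD54 (chr22:37844272-37844371, minus strand), was the only hairpin covered in all 3 lists, by 100 bases in each. MIR152, inside COPZ2, which codes for a coat protein of transport vesicles (chr17:48037161-48037247, minus strand), was covered in hPSC alone, by 87 bases. Their mature sequences are given to identify the 2 loci, from RefSeq, with the seed (bases 2 to 8) in capitals.
hsa-miR-658: gGCGGAGGgaaguagguccguuggu
hsa-miR-152-3p: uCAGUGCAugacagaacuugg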

How the data were processed

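MAR-seq was done on 6 samples in 3 groups, and the authors deposited 1 BED list per group. Per the labels, nuclei were digested with restriction enzymes beside a sonicated input, and the submitters' processing notes name cutadapt, Bowtie2, SAMtools, MACS2, deepTools and the build hg38, without versions. The deposited lists give positions of regions 400 bp wide, and the deposited score was 0 in every row, so it was not used. Calling thresholds, the use of the input and the pooling of samples are not given in the sources used here, and depth is unknown. The hPSC list is named in the hPSC samples' description, and the hairpin lists carry the hairpin name given in the sample titles. Genes came from RefSeq (GRCh38.p14), which gives gene bodies only, so exons, introns and UTRs were not told apart.

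Each autosomal base was put in 1 class (inside genes under 50 kb, inside longer genes, within 1 kb of a protein-coding gene boundary, outside genes), and regions were classed by their centre. Density is regions per Mb of the class. A region was shared when it met a region of the other list at 1 bp or more. Intervals are exact Poisson for densities and exact Clopper-Pearson for shares, and intervals of log2 ratios and of differences are normal approximations on the counts. Regions of a gene and overlapping windows are not independent, so these intervals are likely too narrow. Named genes were, per list, the 5 with most members, the 5 with most members identical in all lists, the 3 with the largest decrease and the 3 with the largest increase from shLUC to shHNRNPU, and up to 4 genes of each gene list with an overlapping member in all lists. Ties went to the shorter gene. Of these, ZNF219, ZNF579, ZNF808, SLC25A37 and SLC66A2 are not described. Genes named beside the gene lists (HOXA3, HOXC4, the ribosomal, pluripotency and nuclear matrix genes) were chosen after their values were seen. Members and lists were chosen with earlier results of these data known. The start windows of RefSeq were brought in after the data had been seen. They did not cover every gene, and none was on chromosome 8 in the table used. The printed windows are all those wholly inside a region in every list and, of each other kind, the window nearest to its median GC content, and the strand of their sequences was checked by 2622 overlapping windows on opposite strands, all of which matched. The code was tested on simulated lists. Scripts ran in Python 3.11.15 with scipy 1.17.1 (intervals), pandas 2.3.3, numpy 2.4.6 and, for plots, matplotlib 3.10.9.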

Additional observations from a re-analysis of the deposited data

How the results depend on the processing

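No paired analysis was possible because a group has a single list, with no values per sample, and for the same reason no replicate could be left out. A planned comparison of base composition was not run, as no genome was given. Of 56 recomputed values, 33 stayed inside the interval of the value reported and 23 left it, none with a change of direction. Merging regions less than 1 kb apart and leaving out chromosome 19 moved none of the 10 results outside its interval, nor did an overlap of 50% of both regions move either of the 2 results on sharing.

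The remaining alternatives moved the following. The density ratio to all autosomes was 1.23 (hPSC), 1.80 (shLUC) and 1.73 (shHNRNPU) with genes under 25 kb, 1.38 (shLUC) and 1.35 (shHNRNPU) with genes under 100 kb, and 1.07, 1.43 and 1.40 beyond 2 kb from a boundary. The log2 ratio of member shares, hPSC against shLUC, was -0.55 under 25 kb, -0.33 under 100 kb and, in an alternative added after seeing the data, -0.50 without members that touch a start window. The difference in sharing of shLUC members with hPSC was -2.72 points under 25 kb, -6.35 under 100 kb and -6.29 without members at start windows. Leaving out those members kept the other regions at start windows. Both shifts therefore follow from the values already given for members that touch a start window. The share of genes holding a member in hPSC, shLUC and shHNRNPU was 14.3%, 19.8% and 17.8% under 25 kb, 29.0%, 34.3% and 32.2% under 100 kb, and 20.1%, 25.2% and 23.4% beyond 2 kb. The alternatives of gene length and distance change the genes or the territory counted, and density falls with gene length and with distance from a boundary. With 1 list per group and depth unknown, differences between lists could not be set against differences in depth or calling.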
